A study of Homo sapiens with 12 samples.

Results

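U266 is a human multiple myeloma cell line, a cancer of plasma cells, that the labels give as p53 mutant. The experiment compared 2 arrays of U266 treated with 40 µM PRIMA-1Met for 8 h with 2 arrays of U266 given DMSO, the solvent. These 4 of the 12 arrays of the study were chosen by their titles, and no measured value was used to choose them. The study also treated MM.1S (p53 wild type, 20 µM) and 8226R5 (p53 null, 40 µM) for 8 h, each with 2 treated and 2 DMSO arrays. The arrays were Illumina HumanHT-12 and read amplified cRNA made from total RNA. The question was which genes differ in U266 cells after the drug. Each line stands for 1 genetic background, and cell line and p53 status cannot be told apart. The labels describe duplicate wells but do not tie the arrays to wells or cultures. The p-values therefore cover only how far these samples differ from each other, and that spread may be technical.

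PRIMA-1Met, also named APR-246, gives rise inside cells to a reactive compound that attaches to thiols, such as cysteines of p53 and glutathione. Metallothioneins are small proteins whose many cysteines hold zinc and copper ions, and their genes are switched on by the zinc-sensing transcription factor MTF1 through metal response elements. Heat shock genes answer damaged protein through HSF1, and NRF2 drives genes of glutathione and thioredoxin metabolism. Plasma cells depend on IRF4, PRDM1 and XBP1, and myeloma cells often use IL6 as a growth factor.

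The stretches shown here lie directly before the transcription start of the 3 metallothionein genes that rose and had an entry in the promoter table, and of HSPA6, a strictly stress-induced heat shock gene. They are RefSeq promoters of GRCh38.p14, plus strand, 5′ to 3′, and end at the base before the start. In the metallothioneins, capitals mark the core of the metal response element, TGCACNC or TGCGCNC on either strand. In HSPA6 they mark a heat shock element, searched as GAANNTTC and TTCNNGAA sharing their middle unit. The 2 forms of the metal response core cannot match at the same place on 1 strand, and matches that overlapped were each counted.
MT1H, chr16:56669654-56669813: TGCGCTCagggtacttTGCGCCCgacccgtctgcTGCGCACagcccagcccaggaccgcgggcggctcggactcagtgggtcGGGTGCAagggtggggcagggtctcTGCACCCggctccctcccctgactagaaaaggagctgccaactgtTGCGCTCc
MT2A, chr16:56608424-56608583: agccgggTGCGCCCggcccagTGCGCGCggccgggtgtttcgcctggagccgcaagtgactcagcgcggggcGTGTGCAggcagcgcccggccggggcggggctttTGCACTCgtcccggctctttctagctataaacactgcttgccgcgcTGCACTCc
MT1X, chr16:56682310-56682469: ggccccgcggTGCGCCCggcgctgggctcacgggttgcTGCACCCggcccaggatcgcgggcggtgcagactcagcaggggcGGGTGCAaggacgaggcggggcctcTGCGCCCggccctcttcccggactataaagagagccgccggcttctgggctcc
HSPA6, chr1:161524380-161524539: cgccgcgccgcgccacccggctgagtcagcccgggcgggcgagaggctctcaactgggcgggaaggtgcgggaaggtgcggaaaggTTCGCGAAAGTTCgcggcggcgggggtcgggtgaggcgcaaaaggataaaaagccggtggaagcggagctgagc
In the 250 bases before the start, MT1H held 8 metal response cores, MT2A 7 and MT1X 4. Among all 35116 listed promoters, 24.8% held at least 1 such core and 0.37% at least 4. MT1B and MT4, which were not detected in U266, held 3 each, and 1.58% of all promoters held at least 3. The heat shock element was present once in HSPA6 and in 0.441% of all promoters. The windows of HSPA1B, HSPH1 and HSPA4 held no match to these letters. Of 35 promoters of tested heat shock genes 7 held the element, and of the 23 promoters of those that rose 5 did. CHORDC1, which changed by 0.02, held 3. A promoter of HSPD1, which rose by 0.38, held 5 metal response cores. These matches describe the sequence only.

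The deposited values were on the log2 scale and quantile normalized, so that all arrays shared 1 distribution. Genes were tested with limma on the 4 arrays, and a gene was called where its Benjamini-Hochberg adjusted p was under 0.05. Of 9591 genes tested 3643 were called, which is 38.0%. They comprised 1659 rises (17.3%) and 1984 falls (20.7%). A change of at least 2-fold, the size the study's design names, was reached by 121 rises (1.26%) and 141 falls (1.47%), and all of them were called. The median change over all genes was -0.01 log2 units. Large changes were mostly rises: 35 called rises and 3 called falls passed 4-fold, and 16 rises and 0 falls passed 8-fold. With genes below background in 1 group taken at their bounds, 101 rises and 112 falls passed 2-fold, 32 and 3 passed 4-fold, and 14 and 0 passed 8-fold. With the first control array left out, 544 rises and 704 falls were called, and without the second control array 584 and 726. Both treated arrays lay above both controls in 34.8% of the genes and below both in 38.2%. These shares stand beside every separation of groups given below, and the 17.3% and 20.7% called stand beside every list count. The counts past 2-fold were 117 to 128 rises and 134 to 154 falls when any 1 array was left out.

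**Figure D1:**
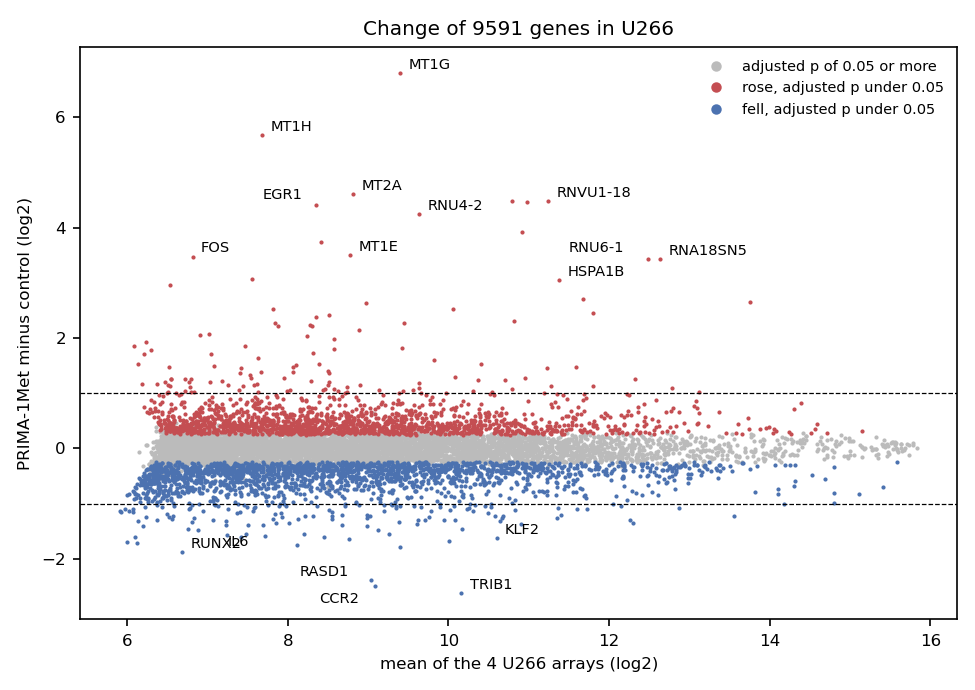
Change of each of 9591 genes (PRIMA-1Met minus control, log2) against its mean over the 4 U266 arrays (log2), with dashed lines at 2-fold. Metallothioneins and small nuclear RNAs stand at the top, up to a fitted 6.80 for MT1G, whose controls were below background, and the lowest point is TRIB1 at -2.62.

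Raw signals of the 4 arrays differed by group before normalization. The 90th percentile of signal was 904.3 and 906.3 intensity units on the control arrays and 549.2 and 521.5 on the treated arrays. Detected probes (detection p under 0.01) numbered 16025 and 15849 against 14982 and 14197. The 100 brightest probes held 16.9% and 16.7% of the signal in the controls and 20.04% and 20.32% after treatment. In 8226R5 the 90th percentile moved the other way, from 696.6 and 705.2 to 870.0 and 864.5. The part of these shifts in the results was not tested. Plasma cell identity was checked with 9 markers, of which 8 were detected on all 4 arrays and CD38 on none. The 3 B cell markers with a probe were detected on none. Among markers of other cell types CD8A, FCGR3A, ALB and PPBP were each detected on all 4 arrays.

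The largest rise was that of the metallothionein gene MT1G. Of 10 metallothionein genes with a probe, 6 passed the detection filter and all 6 rose, also with any 1 array left out. Their median change was 4.17 log2 units, and 3.93 with the 3 genes below background in the controls taken at their bounds. These 3 genes passed the filter through the treated arrays alone and so could only be seen to rise. MT1G was not above background in the controls, at 5.94 and 6.07, and reached 12.76 and 12.84 after treatment. The groups were far apart, with at least 84.7-fold more signal after treatment (adjusted p = 1.701e-07, limma). MT1H stood at 4.96 and 4.72 in the controls, below background, and at 10.55 and 10.49 after treatment, at least 17.4-fold higher (adjusted p = 3.904e-07). MT2A, the main isoform in many tissues, went from 6.46 and 6.55 to 11.09 and 11.15, a rise of 4.61 ± 0.09 (SE) with no overlap of groups. The lowest detected values of the 4 arrays ranged from 6.388 to 6.61, so the MT2A controls stood near background. MT1X rose by 3.73 ± 0.09 and MT1E by 3.50 ± 0.09. MT1F, not above background in the controls, was at least 1.42-fold higher at 7.10 and 6.70. The remaining members, MT1B, MT1M, MT3 and MT4, were detected on no array. MT3 is known mainly from brain and MT4 from stratified epithelium. Metallothionein genes are close copies of each other, so a probe can also bind a related transcript.

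**Figure D2:**
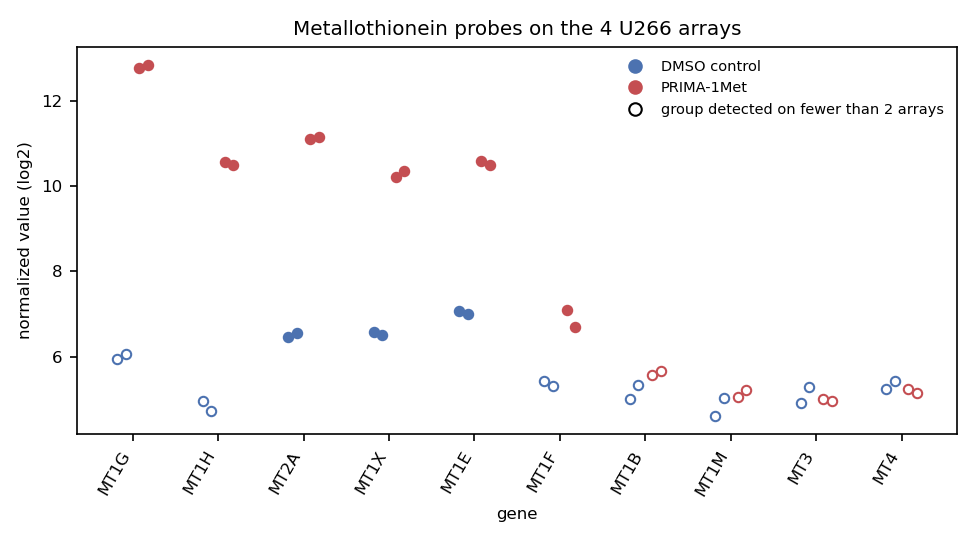
Normalized values (log2) of the 10 metallothionein genes with a probe on the 2 control and the 2 treated U266 arrays, with open points where a group was detected on fewer than 2 arrays. In 6 genes both treated arrays lie above both controls, by at least 84.7-fold for MT1G and at least 1.42-fold for MT1F, and the other 4 have open points in both groups.

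Other genes of zinc and copper handling changed by less than 1 log2 unit. Among 19 tested genes of zinc and copper transport 3 rose and 2 fell, with a median of 0.07. With either control array left out 1 rose and 2 fell. MTF1, the metal-responsive transcription factor, rose by 0.50 ± 0.08 (adjusted p = 0.004085). SLC30A7, a zinc transporter of the secretory pathway, rose by 0.47 ± 0.09, and SLC39A4, a zinc importer, by 0.43 ± 0.11. SLC39A6, another zinc importer, fell by 0.70 ± 0.10, and ATP7A, a copper pump that was not above background after treatment, was at least 1.32-fold lower. SLC30A1, the zinc exporter that is a classic MTF1 target, stood at 6.97 and 6.87 in the controls and at 6.66 and 6.70 after treatment, a change of -0.24 ± 0.08 with an adjusted p of 0.05804.

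Probes of small non-coding RNAs formed the second group of large rises. The arrays read amplified cRNA, and whether the values of these probes and of the ribosomal RNA probes follow RNA level was not tested. Of 20 tested small nuclear RNAs and other abundant non-coding RNAs 17 rose and 0 fell, with a median of 2.23, and 17 rose with any 1 array left out. RNVU1-18, a variant of the U1 RNA that recognises the 5′ splice site, went from 9.04 and 8.97 to 13.43 and 13.54. RNU4-2, of the U4 RNA in the tri-snRNP, went from 7.50 and 7.53 to 11.77 and 11.75. RNU6-1, the U6 RNA of the splicing core, went from 10.80 and 10.72 to 14.26 and 14.14. In these genes the treated arrays lay more than 3 log2 units above the controls. RNVU1-7 rose by 4.48 ± 0.10, RNU1-3 by 4.47 ± 0.09 and RNU1-1 by 3.92 ± 0.08, but U1 copies are nearly identical and their probes may read the same RNA. RNU6ATAC, of the minor spliceosome, was not above background in the controls and was at least 6.46-fold higher after treatment. Of the 20 tested genes 5 were below background in 1 group and passed the filter through the other group alone. RN7SK, the RNA that holds the elongation kinase P-TEFb inactive, rose by 2.45 ± 0.11. VTRNA1-1, a vault RNA, rose by 2.27 ± 0.08, and RPPH1, the RNA of ribonuclease P, by 2.24 ± 0.11.

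Ribosomal RNA probes also read higher. RNA18SN5, the small-subunit ribosomal RNA, went from 10.95 and 10.90 to 14.33 and 14.37, a rise of 3.42 ± 0.08. RNA28SN5 rose by 2.65 ± 0.09 and RNA5S9 by 2.30 ± 0.08. All 4 tested Y RNAs rose (median 1.70), among them RNY1 by 2.22 ± 0.09. TERC, the RNA of telomerase, was at least 1.63-fold higher. RN7SL1, the RNA of the signal recognition particle, stood at 15.53 and 15.38 against 15.58 and 15.58, a change of 0.12 (adjusted p = 0.3046). By RefSeq biotype 13 of 14 snRNAs rose with a median of 2.75, against 1509 rises (16.5%) and 1907 falls (20.9%) among 9129 protein-coding genes. The biotype classes were examined after the values were seen.

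Of 79 tested snoRNAs and Cajal body RNAs, which guide RNA modification, 39 rose and 7 fell (median 0.29). Of the 79, 15 were below background in 1 group and passed the filter through the other group alone. With the first or the second control array left out 23 and 21 rose. The U3 copies SNORD3D, SNORD3C and SNORD3A, needed for pre-rRNA cleavage, rose by 2.52 ± 0.08, 2.41 ± 0.08 and 2.26 ± 0.10. SNORD31 fell by 0.94 ± 0.18 and SNORD33, not above background after treatment, was at least 1.29-fold lower. Of 14 tested host genes, whose introns encode many snoRNAs, 2 rose and 5 fell (median -0.02), and 1 or 2 fell without a control array. SNHG1, host of several box C/D snoRNAs, fell by 0.73 ± 0.09, and DANCR rose by 0.67 ± 0.10. SNHG7 fell by 0.56 ± 0.09 on the probe used, while another of its probes moved by 0.59.

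Among immediate early genes, the first transcription factors made after many stimuli, 8 of 12 tested rose and 0 fell (median 0.55). Of the 12, 4 (EGR1, FOS, NR4A2 and IER3) passed the detection filter through the treated arrays alone and so could only be seen to rise. Without the first or the second control array 7 and 5 rose. EGR1, a zinc finger factor, was not above background in the controls at 6.11 and 6.20 and reached 10.54 and 10.57, at least 17.9-fold higher (adjusted p = 3.904e-07). FOS, a subunit of AP-1, stood at 4.88 and 5.27 in the controls, below background, and at 8.67 and 8.43 after treatment, at least 4.45-fold higher. In both genes all treated arrays were detected and no control array was. NR4A2, an orphan nuclear receptor, was at least 2.83-fold higher. JUN, the partner of FOS, rose by 1.11 ± 0.08 and JUNB by 0.51 ± 0.09. JUND changed by -0.01 (adjusted p = 0.9309). In the list of MAP kinase phosphatases and Sprouty genes 2 of 10 rose and 1 fell, and 1 rose without the second control array and 4 without the first treated array. DUSP1, the phosphatase that switches off p38 and JNK, rose from 7.37 and 7.05 to 9.21 and 9.31, a change of 2.04 ± 0.12. RGS2, which dampens Gq signalling, rose by 1.39 ± 0.08. FOSB, FOSL1, EGR3, EGR4, NR4A1 and CCN1 were detected on no array, and NR4A3 on 1 treated array.

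Of 26 tested heat shock genes of the cytosol and mitochondria 15 (57.7%) rose and 1 fell, with a median of 0.37, beside rises of 17.3% among all genes. With the first or the second control array left out 8 and 10 rose. HSPA1B, the inducible Hsp70, went from 9.87 and 9.85 to 13.00 and 12.81, a rise of 3.04 ± 0.10 (adjusted p = 3.615e-06). HSPA6, not above background in the controls at 5.94 and 6.02, reached 8.03 and 8.06, at least 3.14-fold higher. BAG3, an Hsp70 co-chaperone, went from 8.44 and 8.60 to 10.35 and 10.30. The groups were separated in these 3 genes, and 34.8% of all genes had both treated arrays above both controls. DNAJB1, the main Hsp40 partner of Hsp70, rose by 1.52 ± 0.08 and HSPH1, its exchange factor, by 1.12 ± 0.09. HSPB1, a small heat shock protein, fell by 0.44 ± 0.09. HSP90AB1, the constitutive Hsp90, changed by 0.01 ± 0.09 (adjusted p = 0.9405). HSPA1B has a near-identical copy, HSPA1A, whose transcript its probe may also read.

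Of 22 tested ER chaperones and unfolded protein response genes 2 rose and 6 fell (median -0.04), and with either control array left out 0 rose and 1 fell. HSPA5 (BiP), its main Hsp70, rose by 0.48 ± 0.09, and XBP1, the factor that expands the secretory pathway, fell by 0.85 ± 0.08. In the list of ATF4 and the integrated stress response 11 of 22 rose and 3 fell (median 0.32). Without the first or the second control array 7 and 6 rose. DDIT4, an mTORC1 inhibitor, went from 9.47 and 9.40 to 10.71 and 10.73. DDIT3 (CHOP), a stress factor that promotes cell death, went from 9.01 and 9.06 to 10.21 and 10.23. ATF3, a repressor of the same family, rose by 1.04 ± 0.08. All 3 passed 2-fold, as did 1.26% of all genes upward, with no overlap of groups, which held upward in 34.8% of all genes. ATF4 itself stood at 14.17 and 14.10 against 14.22 and 14.24, a change of 0.09 ± 0.08 (adjusted p = 0.4137). Among its targets PSPH of serine synthesis fell by 0.49 ± 0.08 on its brightest probe, with the other at 0.05 (adjusted p = 0.6475), and the amino acid transporter gene SLC7A5 by 0.28 ± 0.08. Of 18 cytosolic aminoacyl-tRNA synthetases 0 rose and 4 fell, among them AARS1 by 0.84 ± 0.08. With the first or the second control array left out 1 and 2 fell.

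Of 16 tested NRF2 targets 3 rose and 4 fell (median -0.07), and with either control array left out 1 rose and 0 fell. SRXN1, which repairs peroxiredoxins, rose by 0.63 ± 0.08 and MAFG, a partner of NRF2, by 0.38 ± 0.08. GCLM, the modifier subunit of the enzyme that starts glutathione synthesis, fell by 0.49 ± 0.10, although another of its probes moved by 0.27. HMOX1, haem oxygenase, stood at 8.05 and 7.85 against 7.75 and 7.40, a change of -0.37 ± 0.13 (adjusted p = 0.06095). TXNRD1, thioredoxin reductase, changed by 0.15 ± 0.09 (adjusted p = 0.2341), but a second probe for it fell by 0.53 (adjusted p = 0.01118). Of 27 genes of the glutathione and thioredoxin systems 6 rose and 6 fell, and with a control array left out 0 or 1 rose and 1 or 2 fell. TXNIP, the inhibitor of thioredoxin, fell by 1.07 ± 0.09.

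Of 21 tested p53 target genes 3 rose and 6 fell (median -0.16), and with either control array left out 2 rose and 4 fell. The 3 rises and 6 falls were 14.3% and 28.6% of the list, beside 17.3% and 20.7% of all genes. ZMAT3 rose by 0.81 ± 0.09 on its brightest probe, GDF15 by 0.62 ± 0.09 and PPM1D by 0.27 ± 0.08. GDF15 was detected on only 1 control array and stood near background there. The other ZMAT3 probes changed by -0.13 (adjusted p = 0.4061) and 0.29. TP53INP1 fell by 1.30 ± 0.10, GADD45A by 0.72 ± 0.08 and BAX, an executor of mitochondrial apoptosis, by 0.67 ± 0.10, with a second BAX probe at -0.15 (adjusted p = 0.3807). CDKN1A (p21), which arrests the cell cycle, stood at 11.22 and 11.04 against 11.00 and 10.95, a change of -0.16 ± 0.09 (adjusted p = 0.2107). BBC3 (PUMA) changed by -0.03 ± 0.14 (adjusted p = 0.8613). Of 17 BCL2 family genes 3 rose and 5 fell, and with either control array left out 0 rose and 4 fell. BCL2L1 (BCL-XL), a survival gene, went from 12.54 and 12.56 to 11.60 and 11.48. MCL1, the survival gene on which many myelomas depend, went from 11.17 and 11.26 to 10.30 and 10.32. The other probes of these genes fell by 1.87 and 1.60. BCL2 rose by 0.33 ± 0.08, and its other probe changed by -0.19 (adjusted p = 0.1035). Among caspases, death receptors and their inhibitors 2 of 17 rose and 6 fell, and with either control array left out 1 rose and 3 fell. BIRC2, an inhibitor of apoptosis, rose by 0.89 ± 0.13, although its other probe changed by -0.11 (adjusted p = 0.4692), and CFLAR, which blocks caspase-8, fell by 0.63 ± 0.08. CASP8 was not above background after treatment and was at least 1.47-fold lower.

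**Figure D3:**
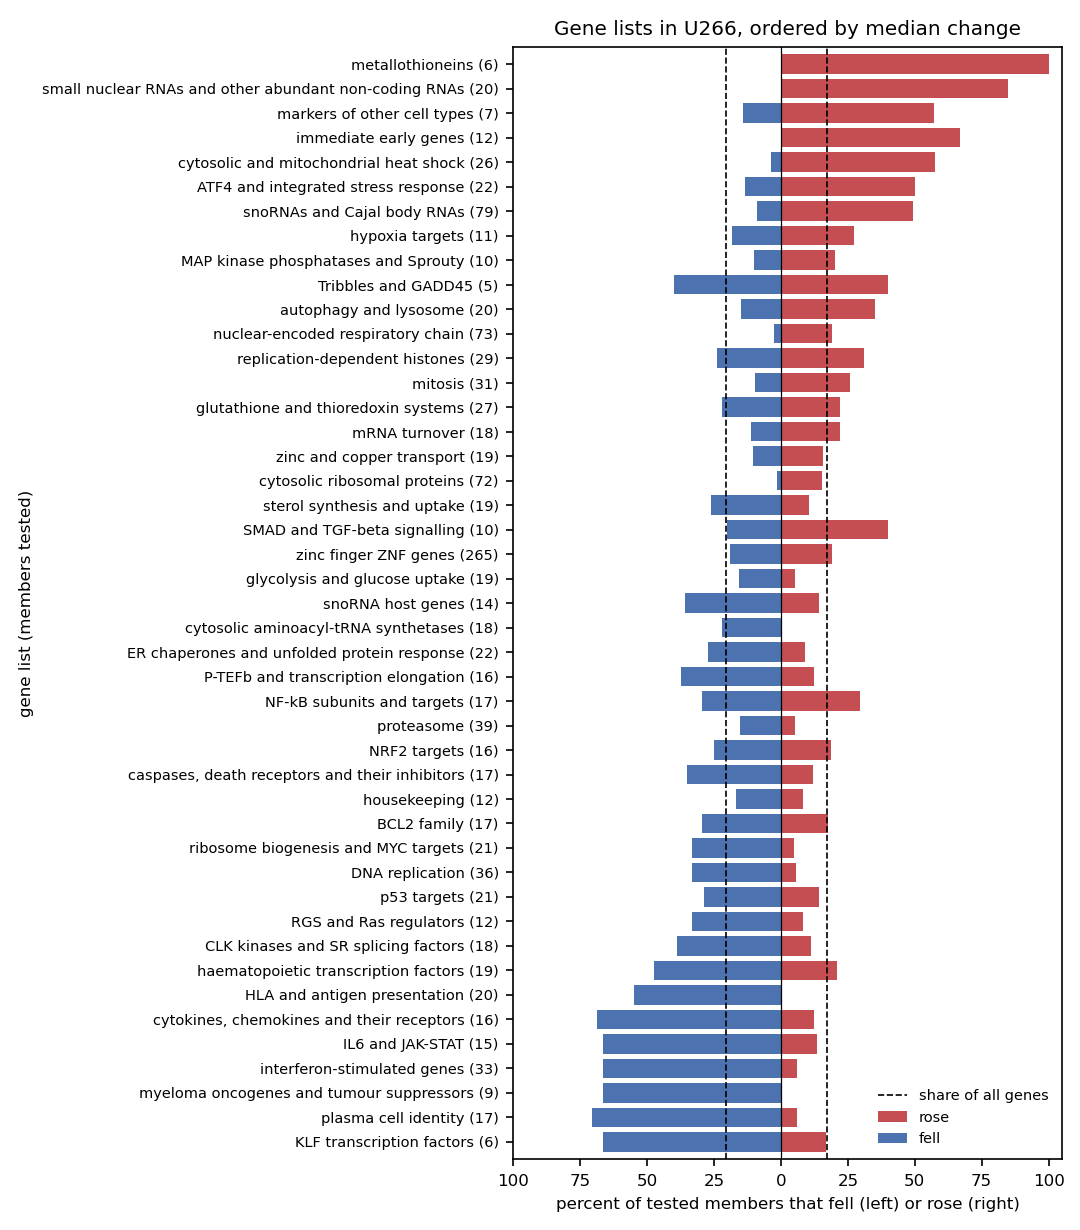
Share of the tested members of each of 45 gene lists that rose (right) or fell (left) at an adjusted p under 0.05, in percent, ordered by the list's median change. Dashed lines give the share over all genes, 17.3% up and 20.7% down. Metallothioneins and small non-coding RNAs reach furthest to the right, and plasma cell genes furthest to the left with 70.6% down, followed by cytokine genes at 68.8% and by interferon-stimulated, IL6, KLF and myeloma oncogene lists at 66.7%.

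Of 17 tested plasma cell identity genes 12 (70.6%) fell and 1 rose, with a median of -0.85, beside falls of 20.7% among all genes. With either control array left out 10 fell. IRF4, the factor on which myeloma cells depend, went from 9.95 and 10.13 to 8.48 and 8.51 and so fell by 1.55 on the log2 scale (adjusted p = 8.142e-05). TNFRSF17 (BCMA), a receptor for plasma cell survival factors, went from 14.18 and 14.16 to 13.00 and 12.88. JCHAIN, which joins antibody polymers, went from 13.45 and 13.38 to 12.37 and 12.30. In each of these the treated arrays lay at least 2-fold below the controls. PIM2, a survival kinase, fell by 1.35 ± 0.08, ELL2, which steers immunoglobulin RNA processing, by 1.30 ± 0.09 and POU2AF1, a B-lineage coactivator, by 1.18 ± 0.09. PRDM1 (Blimp-1) fell by 0.86 ± 0.09 and SDC1 (CD138), the surface marker of plasma cells, by 0.35 ± 0.10. Other PRDM1 probes changed by -0.40 (adjusted p = 0.06668) and -0.29. FCRL5 rose by 0.31 ± 0.10, and its other probe changed by -0.07 (adjusted p = 0.5268). In bulk RNA fewer cells of a type and less RNA per cell cannot be told apart.

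Of 9 tested myeloma oncogenes and tumour suppressors 6 fell and 0 rose. CCND1, the cyclin that U266 expresses, fell by 0.83 ± 0.09 from 14.47 and 14.55, and CCND2 by 0.61 ± 0.08. TENT5C, a poly(A) polymerase that suppresses myeloma, fell by 0.86 ± 0.09. MYC stood at 6.99 and 7.21 in the controls and was not above background after treatment, at 5.77 and 6.04, at least 1.45-fold lower (adjusted p = 0.000601).

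Genes of IL6 signalling fell at several levels of the pathway, 10 of 15 tested, and 2 rose (median -0.56). Without the first or the second control array 7 and 6 fell. IL6, the ligand, went from 8.56 and 8.46 to 6.99 and 6.87 and fell by 1.58 on the log2 scale (adjusted p = 6.76e-05). IL6ST (gp130), the signalling receptor, went from 10.33 and 10.36 to 9.23 and 9.19. STAT3, the transcription factor, went from 10.20 and 10.18 to 9.22 and 9.03. The groups were separated by about 1 log2 unit or more in all 3. IL6R, the binding receptor, fell by 0.83 ± 0.09, the kinase gene JAK1 by 0.71 ± 0.12, and the STAT3 target gene PIM1 by 1.28 ± 0.13. SOCS3, a feedback inhibitor, rose by 0.51 ± 0.10, and OSM, another ligand of gp130 that was not above background in the controls, was at least 1.16-fold higher. Among 16 tested cytokines, chemokines and their receptors 11 fell and 2 rose (median -0.51), and 8 fell with either control array left out. CCR2, a monocyte chemokine receptor, went from 10.32 and 10.35 to 7.78 and 7.90 and fell by 2.50 on the log2 scale, and 3 more of its probes moved by -2.39, -2.27 and -1.19. CXCR4, the bone marrow homing receptor, fell by 0.98 ± 0.08 and LTB, a lymphotoxin, by 1.21 ± 0.10. CCR1 and TNFSF10 (TRAIL) were not above background after treatment, at least 1.91-fold and 1.54-fold lower.

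Interferon-stimulated genes, which carry the antiviral response, fell in 22 of 33 tested cases (66.7%, beside 20.7% of all genes) and rose in 2 (median -0.58). With either control array left out 17 fell. IRF1, an interferon-induced transcription factor, went from 10.01 and 10.11 to 8.74 and 8.70 and fell by 1.34 on the log2 scale (adjusted p = 9.563e-05). IFI44L went from 10.60 and 10.56 to 9.47 and 9.44. IFIT1, a sensor of viral RNA, went from 9.86 and 9.90 to 8.71 and 8.90. These 3 genes had no overlap of groups, and 38.2% of all genes had both treated arrays below both controls. PARP9 fell by 1.23 ± 0.09 and MX1, an antiviral GTPase, by 0.69 ± 0.11. ISG20, an exonuclease, rose by 0.62 ± 0.08 and OAS1 by 0.35 ± 0.08, with other OAS1 probes at 0.41 and -0.07. ISG15 and IFI6 changed by 0.11 (adjusted p = 0.3596) and -0.01 (adjusted p = 0.9512). Of 20 HLA and antigen presentation genes 11 fell and 0 rose (median -0.29), and 3 and 4 fell without the first and the second control array. TAP1, the peptide transporter, fell by 0.93 ± 0.09, PSMB9, an immunoproteasome subunit, by 0.72 ± 0.09 and HLA-B by 0.49 ± 0.11. The other PSMB9 probe changed by -0.21 (adjusted p = 0.322). HLA genes are alike in sequence and their probes can bind several.

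**Figure D4:**
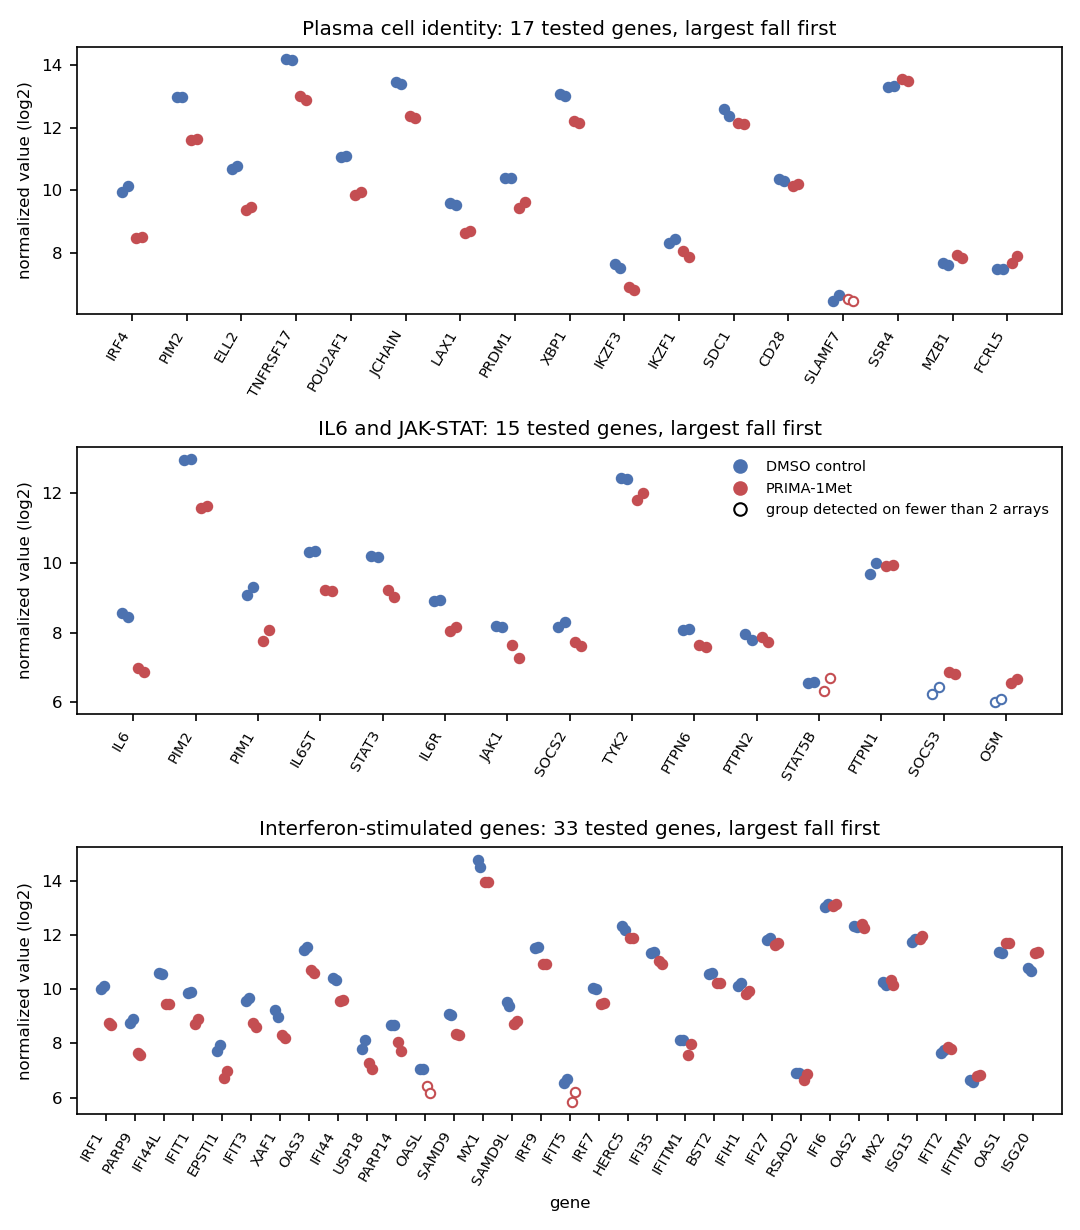
Normalized values (log2) of the tested plasma cell identity (17), IL6 and JAK-STAT (15) and interferon-stimulated (33) genes on the 2 control and the 2 treated U266 arrays, with open points where a group was detected on fewer than 2 arrays. Most genes have both treated arrays below both controls, from IRF4 at -1.55, IL6 at -1.58 and IRF1 at -1.34 on the left to the few rises on the right.

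Among the 9591 tested genes TRIB1 fell furthest. It encodes a pseudokinase that targets C/EBP factors for degradation and went from 11.45 and 11.49 to 8.80 and 8.90 and fell by 2.62 on the log2 scale (adjusted p = 4.003e-06). Its relative TRIB3 rose by 0.50 ± 0.09. RASD1, a small G protein induced by glucocorticoids, went from 10.21 and 10.23 to 7.95 and 7.73 and fell by 2.38 on the log2 scale. Of 12 tested RGS and Ras regulators 1 rose and 4 fell, and 3 and 2 fell when the first or the second control array was left out. RUNX2, a Runt transcription factor, stood at 7.53 and 7.72 in the controls and was not above background after treatment, at least 2.10-fold lower. Of 6 tested KLF transcription factors 4 fell and 1 rose (median -0.98). KLF2, which acts with IRF4 in myeloma cells, went from 11.42 and 11.41 to 9.77 and 9.80. KLF6 fell by 1.37 ± 0.08 and KLF10, not above background after treatment on the probe used, was at least 1.89-fold lower, while 2 more of its probes moved by -0.72 and 0.44. Of 19 haematopoietic transcription factors 4 rose and 9 fell (median -0.22), and without the first and the second control array 2 and 1 rose and 4 and 5 fell. BHLHE40 fell by 1.05 ± 0.09 and MEF2C by 0.85 ± 0.09. ID3, an inhibitor of E proteins, rose by 0.93 ± 0.09. ID2 rose by 0.48 ± 0.08, while another of its probes moved by -0.63. Of 17 NF-kB genes 5 rose and 5 fell, and 3 and 2 rose and 2 and 2 fell without the first and the second control array. TNFAIP3 (A20), a feedback inhibitor, fell by 1.36 ± 0.08 and NFKBIZ rose by 0.59 ± 0.08.

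Other large falls came from genes with varied roles. GLDC, the glycine cleavage enzyme, went from 10.86 and 10.84 to 9.17 and 9.17 and fell by 1.68 on the log2 scale. RHOU, a small GTPase, fell by 1.78 ± 0.09. FRMD6, a Hippo pathway gene, fell by 1.75 ± 0.11. AMACR, of branched-chain fatty acid oxidation, fell by 1.60 ± 0.09, VOPP1 by 1.64 ± 0.14 and ZBTB38, a methyl-CpG binding factor, by 1.62 ± 0.13. NOD2, a sensor of bacterial cell walls, POU2F2 (Oct-2) and SLC25A24, a mitochondrial carrier, were not above background after treatment, at least 1.27-fold, 1.33-fold and 1.22-fold lower.

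Of 16 genes of transcription elongation 6 fell and 2 rose, with a median of -0.05, and without the first or the second control array 4 and 3 fell. CDK9, the P-TEFb kinase, fell by 1.06 ± 0.08 and ELL by 0.87 ± 0.08. MEPCE, the enzyme that caps 7SK RNA, rose by 0.28 ± 0.09. Of 18 CLK kinases and SR splicing factors 7 fell and 2 rose, and 3 or 2 fell without a control array. SRSF7 fell by 0.69 ± 0.08, SRSF2 by 0.63 ± 0.08 and TRA2A by 0.56 ± 0.10, and CLK1 rose by 0.36 ± 0.09, with its other probe at -0.17 (adjusted p = 0.2701). Of 36 DNA replication genes 12 fell and 2 rose (median -0.16), and without the first or the second control array 6 and 5 fell. RRM2, the ribonucleotide reductase subunit that limits dNTP supply, went from 10.58 and 10.61 to 9.39 and 9.21, and MCM4, of the replicative helicase, fell by 0.85 ± 0.09, with its other probe at -0.17 (adjusted p = 0.1557). Among 31 mitotic genes 8 rose and 3 fell, and 3 rose with either control array left out. CCNB1 (cyclin B1) rose by 0.59 ± 0.08 and AURKA by 0.57 ± 0.08, and CCNA2 (cyclin A2) fell by 0.41 ± 0.08. Of 29 replication-dependent histone genes 9 rose and 7 fell, and 6 rose and 2 fell with either control array left out. Of the 29, 4 were below background in 1 group and passed the filter through the other group alone. With only genes detected on all 4 arrays tested, 4 histone genes rose and 7 fell. H4C1, not above background in the controls, was at least 1.53-fold higher, H2AC17 rose by 1.27 ± 0.09 and H2AC11 fell by 0.97 ± 0.08.

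Large metabolic and structural groups had medians near 0. Of 72 cytosolic ribosomal protein genes 11 rose and 1 fell (median 0.06), and of 73 nuclear-encoded respiratory chain genes 14 rose and 2 fell (median 0.09). RPL28 rose by 0.87 ± 0.09, NDUFB9 by 0.55 ± 0.09 and RPL22 fell by 0.38 ± 0.08. Of 39 proteasome genes 2 rose and 6 fell, with PSMC4 at -0.63 ± 0.08 and its other probes at -0.14 (adjusted p = 0.5756) and -0.38. Of 21 ribosome biogenesis genes 1 rose and 7 fell, with NOLC1 at -0.57 ± 0.08. With the first or the second control array left out 6 and 6 ribosomal protein genes, 3 and 1 respiratory chain genes and 19 and 21 ZNF genes rose, and 2 and 1 ribosome biogenesis genes, 1 and 1 proteasome genes and 19 and 22 ZNF genes fell. Sterol synthesis had 2 rises and 5 falls in 19, glycolysis 1 and 3 in 19, hypoxia targets 3 and 2 in 11, and autophagy and lysosome genes 7 and 3 in 20. SMAD and TGF-beta genes had 4 rises and 2 falls in 10, mRNA turnover genes 4 and 2 in 18, and the 265 tested ZNF zinc finger genes 50 and 51. For the ZNF genes these are 18.9% and 19.2%, near the 17.3% and 20.7% of all genes. With the first or the second control array left out 1 and 2 hypoxia targets, 3 and 1 autophagy and lysosome genes, 2 and 2 SMAD and TGF-beta genes and 1 and 1 mRNA turnover genes rose, 0 and 0 sterol synthesis genes fell, and 1 and 1 glycolysis genes fell. VEGFA, an angiogenic factor, rose by 0.65 ± 0.13 and ADM (adrenomedullin) fell by 1.02 ± 0.08. ZNF217 fell by 1.47 ± 0.09 and ZNF577 rose by 1.01 ± 0.08. Of 12 housekeeping genes 1 rose and 2 fell, with ACTB (beta-actin) at -0.60 ± 0.09 and at -1.84 and -0.46 on its other probes.

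Of 32 markers of other cell types with a probe, 7 passed the detection filter. ALB, the serum albumin of liver, went from 6.52 and 6.60 to 9.02 and 9.14, a rise of 2.52 ± 0.09 (adjusted p = 6.003e-06, limma). Its control values were detected but stood near background. APOA1, the other liver marker, was detected on no array. CD14 and COL1A1 were not above background in the controls and were at least 2.03-fold and 1.88-fold higher. The other monocyte markers LYZ, CSF1R, ITGAM, S100A8 and S100A9 and the other fibroblast markers COL1A2, COL3A1 and DCN were detected on no array. FCGR3A rose by 0.67, with the other NK cell markers NKG7, KLRD1 and GNLY detected on no array, and PECAM1 fell by 0.75 ± 0.10. The log2 of the summed level of the liver markers was 7.08 and 7.24 in the controls and 9.18 and 9.27 after treatment. For the monocyte markers it was 8.57 and 8.55 against 8.94 and 8.86, and for the fibroblast markers 8.12 and 8.05 against 8.48 and 8.23. Their part in the other results was not tested.

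The response was set against that of 8226R5, which received the same dose for the same time and had controls of its own. The difference of responses was tested by limma on the 8 arrays of both lines. Of 9591 genes 2679 differed (27.9%), 1285 with a higher response in U266 (13.4%) and 1394 with a lower one (14.5%). Genes entered through detection in U266, and 8316 of them were also detected on at least 2 of the 4 8226R5 arrays. Of these 1185 had a higher response in U266 (14.2%) and 1169 a lower one (14.1%), a restriction chosen after the data were seen. The metallothionein list had a median response of 0.16 in 8226R5 and 4.17 in U266, and all 6 tested members differed. MT1G changed by -0.06 in 8226R5 (adjusted p = 0.663), MT2A by 0.07, MT1E by 0.15 and MT1X by 0.90. Of the 20 small nuclear and other non-coding RNAs 16 responded more in U266 and 0 less, and 13 of the 16 members also detected in 8226R5 did. The list's median in 8226R5 was 0.48, and RNVU1-18 and RNU1-3 rose there by 0.88 and 0.84. RNA18SN5 changed by -1.15 in 8226R5, against 3.42 in U266. EGR1 and FOS rose in both lines, by 2.90 and 2.61 in 8226R5. In U266 their controls were below background, and the bounds of their rises were 4.16 and 2.15, so that a larger rise of FOS in U266 was not shown. The fitted difference for FOS was 0.86 and had an adjusted p of 0.03534 with all arrays and of 0.1183 without the first control array and 0.08036 without the first treated array. HSPA1B and BAG3 had differences of 0.04 ± 0.14 (adjusted p = 0.8727) and -0.14 ± 0.13 (adjusted p = 0.4736). DNAJB1 rose in both lines, with a difference of -0.81 (adjusted p = 0.001168), so that its rise was smaller in U266. Without the first control array 760 genes responded higher in U266 and 906 lower, and without the second 820 and 940.

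These genes were chosen by their change in U266, which is part of each difference. VOPP1, detected on all arrays of both lines, changed by 0.90 in 8226R5 and by -1.64 in U266. RASD1, which fell by 2.38 in U266, was not above background in the 8226R5 controls and was detected on both treated arrays there. CCR2 was detected on no 8226R5 array, so that no response could be measured there. Of the 17 plasma cell genes 10 had a lower fitted response in U266 and 2 a higher one, but 8, IRF4 among them, were detected on no 8226R5 array. Of the 9 detected on at least 2 of them 5 responded lower and 2 higher. Of 32 interferon-stimulated genes detected in both lines 15 responded lower and 4 higher. MCL1 changed by 1.16 in 8226R5 and by -0.90 in U266, a difference of -2.06 (adjusted p = 2.342e-05). IRF1 fell by 1.34 in both lines (adjusted p of the difference 0.9924), and TNFAIP3 fell in both with a difference of -0.12 (adjusted p = 0.4325). Of 16 NRF2 targets 0 responded higher in U266 and 8 lower, or 0 and 7 of the 14 also detected in 8226R5, and their median response was 0.33 in 8226R5. TXNRD1 changed by 0.52 in 8226R5 and by 0.15 in U266.

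**Figure D5:**
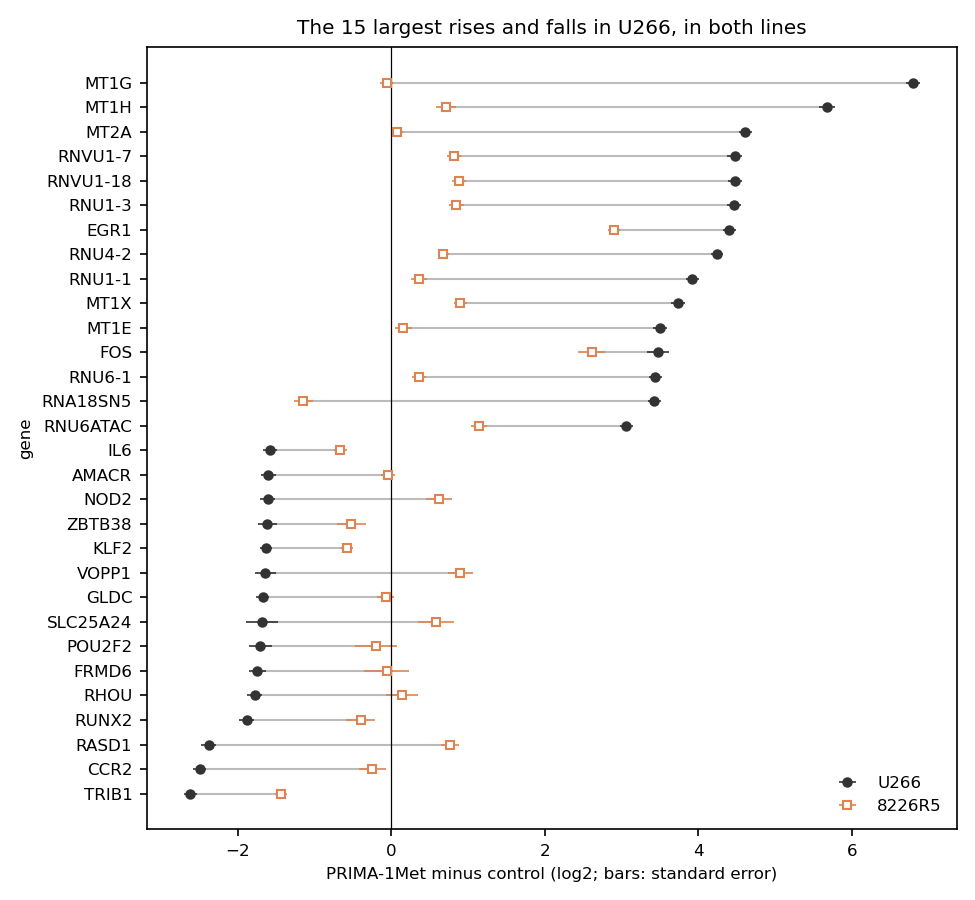
Response to PRIMA-1Met (treated minus control, log2, with standard errors) of the 15 largest rises and 15 largest falls in U266, shown for U266 (filled circles) and 8226R5 (open squares). The fitted responses differ by up to 6.86 log2 units for MT1G. Of the 30 genes 8 were detected on no 8226R5 array and 9 were below background in 1 group of U266. FOS, EGR1, IL6, TRIB1 and KLF2 were among those that moved the same way in both lines.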

How the data were processed

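Per the file headers, 1 deposited table holds a background-subtracted signal in intensity units for each probe and array, not normalized between arrays, with a detection p-value against negative control beads. The other deposited table holds the authors' log2 values, which had 1 common distribution over the 12 arrays to within 0.002, as quantile normalization gives. The labels' protocols name amplified, biotinylated cRNA, and the submitters' processing notes name BeadStudio, lumi and limma. In the signal table, 9 arrays were displaced by 1 position from probe 22924 on and were realigned, which left 47321 of 47322 probes. Among the analysed probes, 30111 had 1 gene symbol in the platform annotation, 8 several and 17202 none. No columns were left without a sample.

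The log2 values of the 4 U266 arrays were fitted with limma 3.58.1 in R 4.3.3 (lmFit and eBayes, 2 residual degrees of freedom, two-sided, Benjamini-Hochberg adjustment). The 15915 probes tested had detection p-values below 0.01 on 2 or more of these arrays, and each gene was taken from its brightest kept probe. Among 904 called genes with more than 1 kept probe, 67 had another probe called in the opposite direction. Errors after ± are limma's standard errors. For a group below background on both its arrays, "at least" folds replaced its values, array by array, by that of the dimmest detected probe unless its own was higher. Responses of U266 and 8226R5 were compared in 1 fit of their 8 arrays.

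Members and lists were chosen with earlier results of these data known. Genes were named by rule: the 15 largest called rises and falls without overlap of arrays, up to 3 called members of each of 45 lists in each direction, and 30 fixed genes, of which 23 could be tested. Other list members and the genes of the closing section were chosen after their values were seen. Replicates correlated at 0.995 to 0.998. The fit was tested on simulated data. Alternatives were neqc on the signals, 2 median centrings, 2 detection filters, the spread of 8 or 12 arrays, the mean of a gene's probes, a replicate block and each array left out. The number of arrays limits the precision.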

Additional observations from a re-analysis of the deposited data

Results flagged for a closer look

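By fitted values the 15 largest rises and 15 largest falls of U266 all differed from the response of 8226R5 at the same dose and time, by limma's test of the difference with an adjusted p under 0.05. Both lines had their own controls, and the genes were chosen by their change in U266, which is part of each difference. All values are the response in U266 minus the response in 8226R5 on the log2 scale.

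Among the metallothioneins MT1G differed by 6.86, MT1H by 4.97, MT2A by 4.54, MT1E by 3.35 and MT1X by 2.84. Among the small nuclear RNAs RNVU1-7 differed by 3.66, RNU1-3 by 3.63, RNVU1-18 by 3.59, RNU4-2 by 3.57, RNU1-1 by 3.56, RNU6-1 by 3.08 and RNU6ATAC by 1.91. MT1G, MT1H and RNU6ATAC were below background in the U266 controls, and with their U266 rise at its bound the differences are 6.46, 3.41 and 1.55. The 18S ribosomal RNA gene RNA18SN5 rose in U266 and fell in 8226R5, with a difference of 4.57. The immediate early genes EGR1 and FOS rose in both lines, and the fitted differences were 1.51 and 0.86. The controls of both were below background in U266, and with the U266 rise at its bound the differences are 1.26 and -0.46, so that no direction was shown for FOS.

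Among the falls, VOPP1 moved in opposite directions in the lines, with a difference of -2.54. RASD1, not above background in the 8226R5 controls, differed by -3.14. CCR2, FRMD6, NOD2, POU2F2, RHOU, RUNX2, SLC25A24 and ZBTB38 were detected on no 8226R5 array, so that no response was measurable there. Their fitted differences include 8226R5 values below background and do not compare measured responses. SLC25A24 differed by -2.27, NOD2 by -2.23, CCR2 by -2.25, RHOU by -1.92, FRMD6 by -1.68, POU2F2 by -1.50, RUNX2 by -1.49 and ZBTB38 by -1.09. NOD2, POU2F2, RUNX2 and SLC25A24 were also not above background in treated U266. Their U266 changes at the bound are -0.34, -0.42, -1.07 and -0.28. GLDC, detected on all arrays of both lines, differed by -1.60. AMACR differed by -1.56, but in 8226R5 it stood near background. It read 6.69 and 6.54 in the controls there, detected on 1, and 6.62 and 6.52 after treatment. A fall as large as that in U266 could not be measured from that level. TRIB1, KLF2 and IL6 fell in both lines, and their differences were -1.18, -1.05 and -0.92. In 8226R5 IL6 stood at 6.66 and 6.69 in the controls and was not above background after treatment. Its fall there is cut off by background, so that a larger fall of IL6 in U266 was not shown. The calls for FRMD6 (adjusted p = 0.06887 and 0.05871 without the first and the second control array), ZBTB38 (0.06887 without the first) and POU2F2 (0.08248 without the second) were lost when a control array was left out.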

How the results depend on the processing

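Against 1659 rises and 1984 falls, 69 rises and 38 falls were called by limma without the detection filter, which tested 47321 probes, and at an unadjusted p under 0.05 the filtered fit had 4597 genes. Leaving out 1 array gave 544 to 1901 rises and 704 to 2341 falls, with the low ends without a control array. Without a control array the spread within groups comes from the treated pair alone, and without a treated array from the control pair alone. The difference within a pair had a standard deviation over the probes kept of 0.1954 for the treated arrays and 0.1364 for the controls. The part of this in the counts was not tested. Differences from 8226R5 ranged from 760 to 1137 higher and from 906 to 1328 lower. Counting only genes also detected in 8226R5, a choice made after the data were seen, left 1185 and 1169. With neqc 256 falls passed 2-fold. The other settings kept these counts within 1.5 times.

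The count of rises minus falls changed sign in 5 lists. For the NRF2 targets it was 1 with neqc and with the mean of probes, and -2 to 1 with an array left out. For the zinc and copper transport genes it was -1 with the mean of probes and -1 to 1 with an array left out, and for sterol synthesis -3 to 1. For the histones it was -3 with detection on all 4 arrays. For the ZNF genes it was 20 with that filter, 10 with the spread of 12 arrays, 2 with that of 8, and -5 to 8 with an array left out. With the mean of probes BAD changed by -0.23 and ID2 by -0.08.

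Same-numbered arrays did not deviate together over the probes kept (correlation -0.007). This does not show whether arrays with the same number came from the same culture, which the labels leave unknown. The replicate block gave 1563 rises and 1917 falls, and for the difference from 8226R5 1015 higher and 1155 lower. Under it the difference for FOS had an adjusted p of 0.05592. Of 223 named genes that were called, 50 kept their call under every alternative, 127 under those other than no detection filter and 186 under those that kept 4 arrays and a filter. Values below background give only bounds: 99 called rises were not above background in either control, and 299 called falls in neither treated array.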

Other observations

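The genes described next lie outside the naming rule and were chosen after their values were seen. HOPX, a homeodomain cofactor, was not above background in the controls at 4.78 and 5.33 and reached 7.89 and 8.14, at least 3.07-fold higher. GLA, the lysosomal alpha-galactosidase, went from 10.35 and 10.29 to 13.03 and 13.02, a rise of 2.70 ± 0.08 (adjusted p = 3.035e-06, limma), while its response in 8226R5 was 0.11. SAT1, which degrades polyamines, rose by 1.61 ± 0.08. MAFF, a small MAF factor, rose by 1.48 ± 0.09 in U266 and changed by -0.24 in 8226R5. SERTAD1 rose by 1.73 ± 0.09 and CSRNP1 by 1.22 ± 0.09.

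The MYC family members MYCL and MYCN, like MYC, were detected on both control arrays and on neither treated array. MYCL stood at 7.03 and 6.78 and then at 5.64 and 5.36, and MYCN at 7.10 and 7.18 and then at 5.77 and 6.04. MYCL was at least 1.27-fold lower. MXD1, which competes with MYC for MAX, went from 8.07 and 7.99 to 9.15 and 9.06. In 8226R5 MYC changed by -1.41.

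Some genes known from other tissues appeared beside ALB. ASGR1, the liver lectin, and APOE, an apolipoprotein, were not above background in the controls and at least 1.72-fold and 1.59-fold higher after treatment. CDH17, an intestinal cadherin, was at least 2.90-fold higher. Of the probes without a gene symbol that passed the filter, 3485 in number, 845 rose and 584 fell.

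Further large falls were those of CITED2, a CBP-binding coregulator, from 8.15 and 8.36 to 6.67 and 6.72, of SGK1, a kinase induced by glucocorticoids, by 1.29 ± 0.09, and of XPOT, the tRNA exporter, which changed by -1.38 ± 0.13 in U266 and by 0.76 in 8226R5.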
